A study of Sus scrofa with 16 samples.

Results

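Weakly cytotoxic gamma delta T cells of the pig small intestine are T cells that carry the delta chain of the T cell receptor and few transcripts of the killing proteins granulysin (GNLY) and granzyme B (GZMB). The members were chosen by measured counts of unique molecular identifiers (UMIs, each 1 captured transcript), and those counts are not findings. A member held at least 1 UMI of CD3E and at least 2 of TRDC, the constant region of the delta chain. It held none of CD4, CD8B, CD79B or MS4A1, fewer than 3 of TOP2A, CENPF and TPX2 together, and fewer than 5 of GNLY and GZMB together. This gave 661 of 7061 kept barcodes (9.36%, exact 95% interval 8.69% to 10.1%). The samples came from mixed-breed female pigs aged 7.5 weeks, with no treatment named. DUOD was duodenum directly behind the pylorus and JEJ was jejunum about 3 feet farther down. IPP and NoPP were cut from the ileum between 2 and 12 inches in front of the ileocecal valve, IPP from areas holding Peyer's patches and NoPP from areas lacking them. In all 4 regions the epithelium was shaken off with dithiothreitol and EDTA, enriched for live cells on Percoll and run on 10x Chromium 3′ version 3 chemistry, so the cells were those released with the epithelium. The labels list 16 titles, 4 per region, but each region was deposited as 1 matrix in which cells cannot be traced to a title. A region is therefore 1 sample, and no test between regions was possible.

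Gamma delta T cells recognise antigen through a receptor built from a gamma and a delta chain, and most of them carry neither CD4 nor the CD8 beta chain. In the gut they lie largely between epithelial cells as intraepithelial lymphocytes, drawn there by the chemokine receptor CCR9, whose ligand CCL25 is made by the epithelium, and held by the integrin alpha E (ITGAE), which binds E-cadherin. Pigs are among the species rich in gamma delta T cells, and in pigs these cells are classed by the surface proteins CD2 and CD8 alpha.

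Members made up 8.64% of kept barcodes in DUOD (62 of 718, 6.68% to 10.9%), 6.998% in JEJ (69 of 986, 5.49% to 8.77%), 7.42% in IPP (243 of 3273, 6.55% to 8.38%) and 13.8% in NoPP (287 of 2084, 12.3% to 15.3%). NoPP was highest and its interval did not overlap those of the other regions, whose intervals overlapped each other. With cells holding 3 or more epithelial markers left out, the DUOD share was 12.4%, on 26 members. Barcodes with CD3E made up 38.9%, 36.6%, 31.8% and 53.4% of kept barcodes in DUOD, JEJ, IPP and NoPP. Of barcodes with CD3E, members were 22.2% in DUOD (17.5% to 27.6%), 19.1% in JEJ (15.2% to 23.6%), 23.4% in IPP (20.8% to 26.1%) and 25.8% in NoPP (23.2% to 28.5%). On this base the intervals overlapped in every pair of regions, JEJ being lowest and NoPP highest. The intervals cover counting error only, and each share is one of the released cells, not of the tissue.

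**Figure D1:**
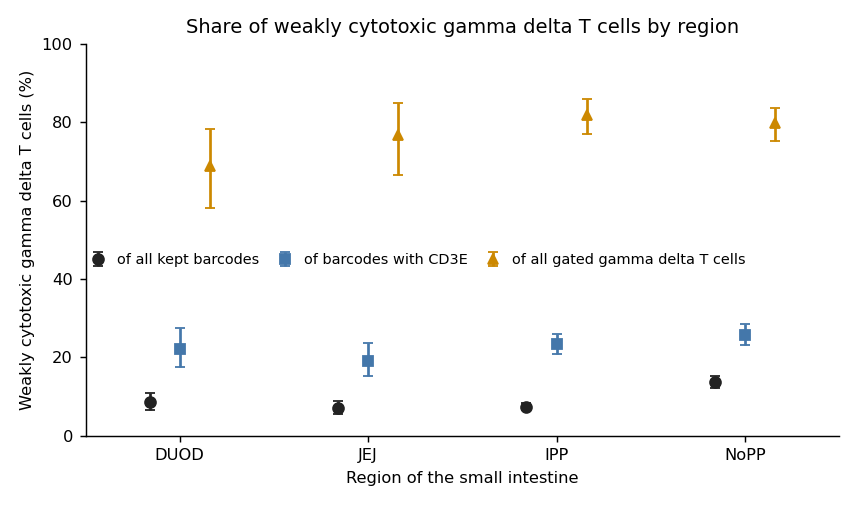
Share of weakly cytotoxic gamma delta T cells (%) in DUOD, JEJ, IPP and NoPP, out of all kept barcodes (circles), barcodes with CD3E (squares) and all gated gamma delta T cells (triangles), 1 pooled library per region, bars are exact 95% intervals. NoPP stands at 13.8% of kept barcodes and at 25.8% of barcodes with CD3E.

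The values that chose the members are given as a description. TRDC had a median of 7, 14, 11 and 12 UMIs per member in DUOD, JEJ, IPP and NoPP, and 23 of the 661 members (3.48%) stood at the lower limit of 2. At least 2 TRDC UMIs were found in 16 of 1171 IPP B cells (1.37%), when TRDC was left out of the B cell gate, and in 1 of 954 epithelial cells (0.105%). Just outside this limit were 20 cells with 1 TRDC UMI, of which 40% held CCR9, against 69.6% of the 23 cells just inside it with 2. Of the 34 cells with 3 TRDC UMIs, also inside it, 41.2% held CCR9. XCL1 was held by 50% of the cells with 1 TRDC UMI, 47.8% of those with 2 and 47.1% of those with 3. No GNLY or GZMB UMI was seen in 442 of 661 members (66.9%), and 30 members (4.54%) held 3 or 4. CCR9 was found in 53.8% of the 13 cells just inside the limit, with 4 such UMIs, and in 9.09% of the 11 cells just outside it, with 5. The gated gamma delta T cells with at least 5 GNLY and GZMB UMIs, called strongly cytotoxic here, numbered 28, 21, 54 and 73 in DUOD, JEJ, IPP and NoPP and had medians of 10.5, 24, 17 and 23 of these UMIs.

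**Figure D2:**
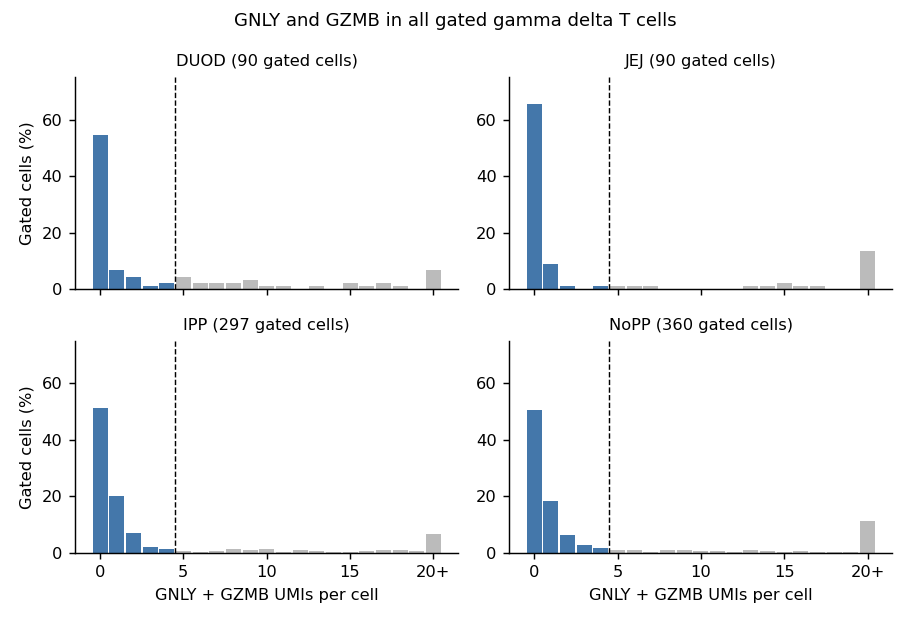
Percent of gated gamma delta T cells (y) by GNLY and GZMB UMIs per cell (x, 20 and over pooled), 1 panel per region with its number of gated cells. Blue bars left of the dashed line are the members and grey bars the strongly cytotoxic cells, and most members hold 0.

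The remaining GNLY and GZMB UMIs of the members were set against those in cells that should lack these genes. GNLY was seen in 4.84%, 2.90%, 18.1% and 11.8% of members in DUOD, JEJ, IPP and NoPP, against 23.1% of IPP B cells and 4.40%, 6.91%, 35.7% and 26.7% of epithelial cells. GZMB was seen in 16.1%, 11.6%, 24.7% and 26.8% of members, against 25.5% of IPP B cells and 8.80%, 14.5%, 38.7% and 36.3% of epithelial cells. These cells were deeper, with a median of 6723 UMIs in IPP B cells and 7322 to 23067.5 in epithelial cells, against 3012, 4423, 4076 and 4169 in members. The limit of fewer than 5 GNLY and GZMB UMIs fixed low shares in members, and the cells were not matched for depth, so the source of these UMIs was not tested. In DUOD both shares lay above those of epithelial cells and below those of IPP B cells, on 62 members.

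Libraries differed in other ways that touch the members. Median mitochondrial shares were 11.4%, 8.51%, 10.2% and 10.3% in DUOD, JEJ, IPP and NoPP. Of the members, 4 were called doublets, against 34 of 176 strongly cytotoxic cells, and 1 was also a kept barcode of another library. At least 3 of 24 epithelial markers were detected in 58.1%, 69.6%, 24.3% and 16.4% of members in DUOD, JEJ, IPP and NoPP, 190 members in all. Their summed level in members was 4905, 12932, 487 and 1481 CPM (UMIs scaled to a common total per library and gate). In JEJ, 92.0% of those UMIs lay in 1 cell with 41133 UMIs, of which 10.1% were epithelial, and that cell held 9 TRDC and 18 CD3E UMIs. In IPP, 98.3% of the UMIs of the haemoglobin gene HBB lay in 1 cell, and in DUOD all 188 UMIs of the collagen gene COL3A1 did. The doublet score called none of these 3 cells.

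The CD3 genes and the receptor's signalling parts were detected in every region. CD3E, a chain of the receptor's signalling complex, stood at 1746, 2005, 2137 and 1598 CPM in DUOD, JEJ, IPP and NoPP, and TRDC at 2153, 2793, 2961 and 3032 CPM. CD3G, another chain of that complex, stood at 926, 1033, 1127 and 852 CPM. CD247, which encodes the zeta chain that passes the signal on, was lowest in DUOD and highest in JEJ, with 660, 1418, 945 and 1129 CPM. CD8B and CD4 were 0 by the rule. CD8A, the CD8 alpha chain, was found in 20.97%, 26.1%, 29.6% and 32.1% of members, against 1.96% of IPP B cells, and after thinning each cell to 1000 UMIs in 9.68%, 10.1%, 11.1% and 8.71%. Its level was 97.5, 63.3, 111 and 120 CPM, so CD8A transcripts were seen in a minority of members in each region.

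CCR9 and XCL1, named as markers of these cells from these same data, were found widely. CCR9 was seen in 48.4%, 79.7%, 79.4% and 78.7% of members in DUOD, JEJ, IPP and NoPP, at 275, 509, 695 and 676 CPM, against 11.9% of IPP B cells and at most 2.05% of epithelial cells in any region. Thinned to 1000 UMIs, the shares were 22.6%, 36.2%, 41.2% and 45.3%. DUOD had the lowest CCR9 level, with an interval of 211 to 352 CPM that lay below the 437 to 590 CPM of JEJ, while IPP (645 to 749) and NoPP (631 to 723) overlapped. XCL1, a chemokine that attracts cross-presenting dendritic cells, was seen in 56.5%, 78.3%, 67.9% and 71.1% of members, against 1.16% of IPP B cells. Its level was 394, 1223, 830 and 679 CPM, and in JEJ 31.1% of its UMIs lay in 1 cell. CCL5, a chemokine stored by effector T cells, was the most abundant gene with a symbol once mitochondrial and ribosomal protein genes were set aside. It stood at 14638, 15061, 13878 and 14712 CPM and was seen in 78.3% to 88.1% of members, though also in 43.5% of IPP B cells at 160 CPM. After it came TMSB4X, TPT1, TMSB10, PTMA and B2M, genes that most cell types express.

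Most cytokines of the list had few or no UMIs. Interferon gamma (IFNG) had 1 UMI over all members, in NoPP, and IL17A and IL2 had none. TNF had 8.86, 0, 0.996 and 3.24 CPM in DUOD, JEJ, IPP and NoPP. IL22, a cytokine that acts on epithelium, had 0, 5.75, 9.96 and 4.05 CPM, and 90.0% of its IPP UMIs lay in 1 cell. Lymphotoxin beta (LTB) stood at 146, 106, 14.9 and 42.9 CPM, and 67.6% of its JEJ UMIs lay in 1 cell.

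Genes of tissue residence were detected in each region. ITGAE was found in 43.5%, 62.3%, 71.2% and 67.2% of members in DUOD, JEJ, IPP and NoPP, at 226, 339, 445 and 404 CPM, against 15.2% of IPP B cells. Within each region ITGAE was more frequent in members with CCR9 (56.7%, 67.3%, 79.8% and 72.6%) than in members without it (31.3%, 42.9%, 38.0% and 47.5%). Cells of both kinds were not matched for depth here, and the part of depth was not tested. RGS1, which dampens chemokine receptor signals and marks gut T cells, stood at 1466, 1749, 1557 and 1783 CPM. CXCR4, another chemokine receptor, stood at 620, 544, 345 and 490 CPM, lowest in IPP.

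Members were low in GNLY and GZMB by rule, but other granule proteins were present. CTSW (cathepsin W, a protease of cytotoxic cells) was found in 88.7%, 97.1%, 91.8% and 92.3% of members in DUOD, JEJ, IPP and NoPP, at 1170, 1369, 1354 and 1221 CPM, against 3.82% of IPP B cells. PRF1 (perforin) was found in 38.7%, 42.0%, 46.5% and 45.3% of members, at 137, 106, 172 and 164 CPM, against 2.40% of IPP B cells. NKG7, a membrane protein of cytotoxic granules, stood at 368, 314, 320 and 329 CPM, and CST7 (cystatin F, an inhibitor of granule proteases) at 421, 397, 503 and 514 CPM. Receptors and adaptors shared with natural killer cells were also found. CRTAM, an activation-induced adhesion receptor, stood at 616, 526, 748 and 669 CPM, and KLRK1 (NKG2D, which binds stress ligands) at 354, 486, 511 and 575 CPM. FCER1G, a signalling adaptor, stood at 439, 455, 535 and 414 CPM. KLRK1 was more frequent in members with FCER1G (65.7%, 66.7%, 68.0% and 78.5%) than without (33.3%, 29.2%, 30.1% and 31.3%). Here too the cells were not matched for depth, and the part of depth was not tested. KLRD1, NCR1 and CX3CR1 had no UMI in any region.

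**Figure D3:**
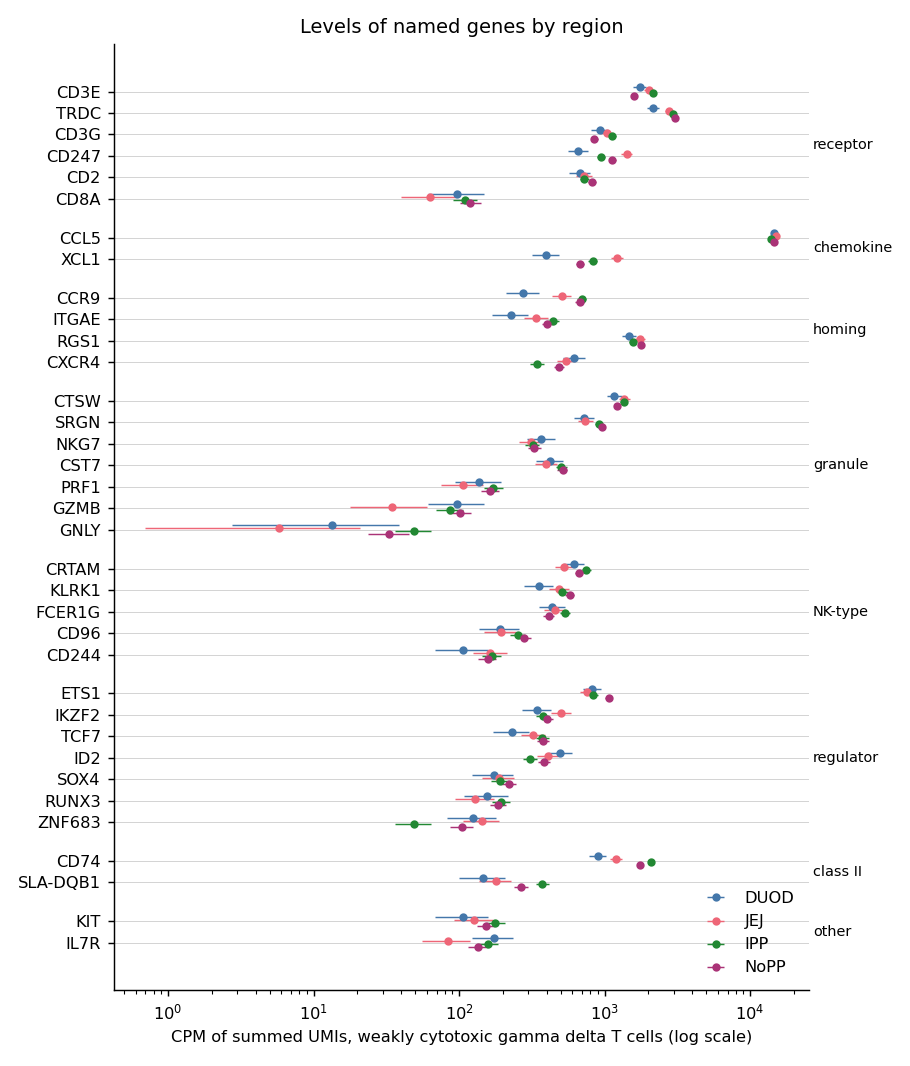
CPM (x, log scale) of named genes in weakly cytotoxic gamma delta T cells, 1 point per region (DUOD, JEJ, IPP, NoPP), bars are exact 95% Poisson intervals of the UMI count. CCL5 lies between 13878 and 15061 CPM in the 4 regions, while XCL1 and CCR9 are lowest in DUOD.

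Over the list of 13 B cell markers, 6 to 9 were detected in members of a region, with a sum of 204 to 362 CPM. CD79B and MS4A1 were 0 by the rule and PAX5 was at 0 in all 4 regions.

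The members were then set against 3 other T cell gates of the same libraries, with UMIs summed per library and gate and the library as a block in edgeR's quasi-likelihood test. Here the library is the unit, and the 4 libraries are 4 gut regions. Since the library is a block, p-values weigh the difference between gates against how far it varied from library to library. They do not measure the spread between animals. Genes used by the gates were left out. The first comparison asked how members differed from strongly cytotoxic gamma delta T cells beyond GNLY and GZMB. Of 3020 genes tested, 72 were higher in members (2.38%) and 50 lower (1.66%) at an adjusted p below 0.05, with 488 at an unadjusted p below 0.05. Without JEJ, IPP or NoPP the higher calls fell to 14, 11 and 8 and the lower calls to 26, 22 and 25. At a mitochondrial limit of 10%, 10 were higher and 27 lower. That limit left 11, 11, 13 and 11 strongly cytotoxic cells in DUOD, JEJ, IPP and NoPP. The part of the smaller number of cells was not tested. Of the 37 genes named by rule, 12 kept their call whichever library was left out.

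CCR9, TCF7 and ZNF683 were higher in members. CCR9 was named as a marker of these cells from these same data, so its difference is given as a description. CCR9 stood at 275, 509, 695 and 676 CPM in members of DUOD, JEJ, IPP and NoPP, against 0, 205, 187 and 197 CPM in strongly cytotoxic cells, without overlap (log2 fold change 2.04 ± 0.40 SE, edgeR adjusted p = 0.030). The CCR9 call was lost without IPP or NoPP, with an adjusted p of at most 0.118. TCF7, a transcription factor of naive and memory T cells, stood at 230, 322, 374 and 379 CPM in members, against 38.7, 108, 95.8 and 106 CPM (log2 1.96 ± 0.20 SE, edgeR adjusted p = 0.0023), and held without any 1 library. ZNF683 (Hobit), a factor of tissue-resident lymphocytes, stood at 124, 144, 48.8 and 104 CPM in members, against 23.2, 0, 13.1 and 0 CPM (log2 3.48, edgeR adjusted p = 0.018, 0.075 without NoPP). ITGAE did not pass, with 226, 339, 445 and 404 CPM in members and 224, 506, 314 and 507 CPM in strongly cytotoxic cells (log2 -0.06, edgeR adjusted p = 0.94). Of 14 homing genes tested, 2 were higher (CCR9 and S100A4) and 1 lower (ITGB1), of 7 genes of recirculation and naive cells 2 were higher (TCF7 and CXCR4), and none of 8 genes of the receptor and CD3 complex passed. S100A4, ITGB1 and CXCR4 each lost their call without 2 or 3 of the libraries, at adjusted p of 0.15, 0.12 and 0.093 at most.

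GNLY and GZMB split the 2 gates, so the differences of other killer granule genes are given as a description. Both genes that the files call GZMA (granzyme A) were far lower in members. GZMA_ENSSSCG00000016902 stood at 208, 20.1, 82.7 and 59.9 CPM in members, against 1850, 5642, 2322 and 4049 CPM in strongly cytotoxic cells, and GZMA_ENSSSCG00000016903 at 79.7, 25.9, 45.8 and 44.5 CPM, against 751, 2143, 1202 and 2359 CPM. Reads may be split between such near-identical genes, so each value alone is uncertain. CTSW went the other way, with 1170, 1369, 1354 and 1221 CPM in members and 194, 172, 375 and 529 CPM in strongly cytotoxic cells, and so did the proteoglycan core serglycin (SRGN), with 727, 739, 914 and 957 CPM and 387, 474, 510 and 715 CPM. Of 10 granule genes tested, these 2 were higher and 3 lower (SERPINB9, which shields cells from granzyme B, and both GZMA genes). The SERPINB9 call was lost without JEJ, IPP or NoPP, at an adjusted p of 0.19 at most. PRF1 (137, 106, 172 and 164 CPM in members, 147, 161, 196 and 340 CPM in strongly cytotoxic cells) and NKG7 (368, 314, 320 and 329 CPM in members, 255, 581, 815 and 783 CPM) did not pass, with edgeR adjusted p = 0.30 and 0.21.

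Signalling, antigen presentation and ribosomal genes differed as well. FCER1G stood at 439, 455, 535 and 414 CPM in members, against 1208, 1626, 911 and 836 CPM in strongly cytotoxic cells (log2 -1.23 ± 0.18 SE, edgeR adjusted p = 0.011), and was the 1 lower gene of 8 NK-type receptors and adaptors tested. The inhibitor of differentiation ID2 (496, 406, 307 and 384 CPM in members, 890, 1206, 645 and 662 CPM) and the guanylate-binding protein GBP1 (301, 406, 188 and 176 CPM in members, 1091, 1378, 536 and 412 CPM) were lower too, with edgeR adjusted p = 0.016 and 0.0023. The ID2 call was lost without JEJ, IPP or NoPP, at an adjusted p of 0.070 at most. UCP2, a mitochondrial carrier, and ADGRG1, a receptor of cytotoxic lymphocytes in humans, were lower with log2 -2.47 and -2.02 and edgeR adjusted p = 0.0014 and 0.0044, and held without any 1 library.

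CD74, the chaperone of MHC class II, stood at 895, 1205, 2086 and 1760 CPM in members, against 279, 463, 1172 and 1104 CPM in strongly cytotoxic cells (log2 1.14 ± 0.19 SE, edgeR adjusted p = 0.018, 0.052 without JEJ). Of 4 class II genes tested, 3 were higher (CD74, SLA-DQB1 and SLA-DMA), with a median log2 of 1.23 against -0.0025 over all genes. SLA-DQB1 lost its call without JEJ or NoPP and SLA-DMA without JEJ, IPP or NoPP, at adjusted p of 0.15 and 0.23 at most, and at a mitochondrial limit of 10% none of 3 class II genes tested passed. SOX4, a transcription factor of early lymphocytes, stood at 173, 187, 192 and 220 CPM in members, against 15.5, 96.9, 47.9 and 41.6 CPM (log2 2.09, edgeR adjusted p = 0.011, 0.072 without NoPP). Ribosomal protein genes took 21.8%, 21.3%, 22.6% and 21.7% of UMIs in members of DUOD, JEJ, IPP and NoPP, against 14.05%, 16.8%, 16.8% and 17.7% in strongly cytotoxic cells, and 35 of 65 of them were higher and 0 lower. Without JEJ, IPP or NoPP 0 of these 65 genes passed edgeR's test, without DUOD 41 did, and at a mitochondrial limit of 10% 2 of 59 did. Mitochondrial genes took 12.0%, 8.59%, 10.6% and 10.9% of UMIs in members and 12.7%, 10.2%, 12.7% and 12.9% in strongly cytotoxic cells, a lower share in members of each library, and its part in these differences was not tested. No gene passed among 22 of oxidative phosphorylation and 13 of glycolysis. Epithelial markers summed to 487 to 12932 CPM in members and 367 to 14399 CPM in strongly cytotoxic cells, and 0 of 13 passed.

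The second comparison was with weakly cytotoxic CD8B T cells, which hold CD8B and no TRDC UMI and met the same limits on GNLY and GZMB. There were 11 and 14 such cells in DUOD and JEJ and 87 and 97 in IPP and NoPP. Of 3991 genes tested, 78 were higher in members (1.95%) and 53 lower (1.33%), with 457 at an unadjusted p below 0.05. DESeq2 called 42 genes, of which 40 were among these calls. Without IPP or NoPP the lower calls fell to 23 and 30. Of 54 named genes, 26 kept their call in every fit with 1 library left out that tested them. Among these 26, RHEX, BLK, S1PR1, RBP2, APOC3, FABP1 and PCED1B were tested in only 2 of the 4 such fits and CDH17 in 3.

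RHEX, BLK and MEF2C were detected in members and nearly or wholly undetected in CD8B T cells. RHEX, an adaptor known from human red cell precursors, stood at 133, 28.8, 94.6 and 76.9 CPM in members and had no UMI in CD8B T cells of any library, at least 25.0-fold higher against a limit of 3 UMIs over the group (edgeR adjusted p = 1.7e-08). BLK, a Src family kinase of B cells and, in mice, of some gamma delta T cells, stood at 53.2, 28.8, 65.7 and 51.8 CPM in members, again with no UMI in CD8B T cells, at least 16.5-fold higher (edgeR adjusted p = 6.9e-07). The transcription factor MEF2C stood at 106, 164, 125 and 46.1 CPM in members, against 0, 0, 2.67 and 0 CPM in CD8B T cells (edgeR adjusted p = 2.6e-09), which was 1 UMI. BLK and MEF2C are also B cell genes, seen in 43.8% and 75.4% of IPP B cells. The 13 B cell markers summed to 204 to 362 CPM in members and 62.1 to 468 CPM in CD8B T cells, with PAX5 at 0 in every library of both, and RHEX was seen in 0.267% of IPP B cells.

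SOX4, the actin bundler FSCN1 and the Src family kinase FGR were also higher in members of all 4 libraries. SOX4 stood at 173, 187, 192 and 220 CPM in members, against 62.1, 41.3, 58.8 and 34.3 CPM in CD8B T cells (log2 2.11 ± 0.22 SE, edgeR adjusted p = 2.2e-08). FSCN1 stood at 115, 147, 193 and 145 CPM in members, against 62.1, 27.5, 40.1 and 29.8 CPM (log2 2.18 ± 0.23 SE, edgeR adjusted p = 2.2e-08). KIT, the receptor of stem cell factor, stood at 106, 127, 177 and 154 CPM in members, against 62.1, 41.3, 53.4 and 73.3 CPM (log2 1.33, edgeR adjusted p = 4.3e-05). IKZF2 (Helios), a factor of unconventional and regulatory T cells, stood at 341, 503, 376 and 404 CPM in members, against 217, 220, 224 and 211 CPM (log2 0.87, edgeR adjusted p = 0.00020). None of these 4 genes overlapped between the groups, and with IKZF2 and ZNF683, ID3 and TOX were higher among 22 lymphocyte transcription factors tested, while 2 were lower, RORA among them. ID3 lost its call without IPP or NoPP (adjusted p up to 0.31) and TOX without IPP (0.062).

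**Figure D4:**
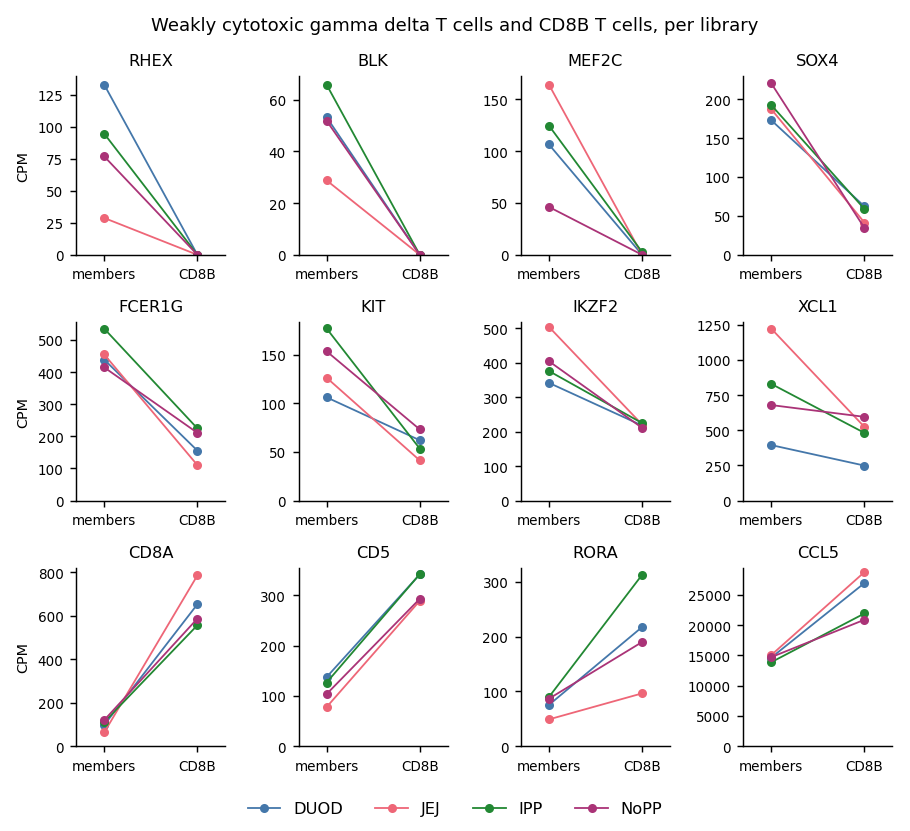
CPM (y, from 0) of 12 genes in members (left) and weakly cytotoxic CD8B T cells (right), 1 line per library, coloured by region. RHEX and BLK are at 0 CPM in CD8B T cells of all 4 libraries, and CD8A, CD5, RORA and CCL5 are lower in members of all 4.

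Receptor, adaptor and chemokine genes moved in both directions. FCER1G stood at 439, 455, 535 and 414 CPM in members, against 155, 110, 224 and 211 CPM in CD8B T cells (log2 1.23 ± 0.16 SE, edgeR adjusted p = 2.2e-06). CD3G stood at 926, 1033, 1127 and 852 CPM in members, against 621, 592, 753 and 598 CPM (log2 0.60, edgeR adjusted p = 0.0039). LAT, the scaffold that relays the receptor's signal, stood at 66.5, 104, 137 and 136 CPM in members, against 279, 317, 198 and 238 CPM (log2 -0.91, edgeR adjusted p = 0.00087). In all 3 genes the groups did not overlap. CD5, which dampens the receptor's signal, stood at 137, 77.7, 127 and 104 CPM in members, against 342, 289, 342 and 293 CPM (log2 -1.52 ± 0.15 SE, edgeR adjusted p = 1.7e-08). CD8A stood at 97.5, 63.3, 111 and 120 CPM in members, against 652, 785, 556 and 586 CPM (log2 -2.56 ± 0.16 SE, edgeR adjusted p = 1.3e-13). CD8A pairs with CD8B, by which the CD8B T cells were chosen, so its difference is given as a description.

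XCL1 stood at 394, 1223, 830 and 679 CPM in members, against 248, 523, 481 and 595 CPM in CD8B T cells (log2 0.65 ± 0.16 SE, edgeR adjusted p = 0.010), and lost its call without JEJ or IPP (adjusted p up to 0.10). CCL5 went the other way, with 14638, 15061, 13878 and 14712 CPM in members and 26952, 28768, 21934 and 20892 CPM in CD8B T cells (log2 -0.72 ± 0.07 SE, edgeR adjusted p = 1.7e-08), without overlap. CCR9 split by region, with 275, 509, 695 and 676 CPM in members and 311, 537, 329 and 405 CPM in CD8B T cells. It passed over the 4 libraries (log2 0.60, edgeR adjusted p = 0.031) but was higher in members of 2 of 4, both ileal. XCL1 and CCR9 were named as markers from these same data, so their differences are given as a description. S1PR1, the receptor that lets lymphocytes leave tissue, stood at 31.0, 20.1, 10.96 and 25.1 CPM in members, against 0, 138, 58.8 and 84.7 CPM (log2 -1.97, edgeR adjusted p = 0.00011), lower in 3 of 4 libraries.

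Of 12 granule genes tested between the 2 weakly cytotoxic gates, 0 were higher and 3 lower in members (GZMM, RAB27A and SERPINB9). RAB27A lost its call without JEJ, IPP or NoPP and SERPINB9 without IPP or NoPP, at adjusted p of 0.76 and 0.57 at most. GZMM (granzyme M) stood at 22.2, 37.4, 18.9 and 37.2 CPM in members, against 93.2, 248, 152 and 57.2 CPM in CD8B T cells (log2 -1.99, edgeR adjusted p = 3.7e-05). CTSW, NKG7, PRF1 and KLRK1 did not pass, with edgeR log2 fold changes of -0.07 ± 0.11, -0.19 ± 0.14, 0.05 ± 0.18 and 0.06 ± 0.14 (SE). Class II, ribosomal protein, oxidative phosphorylation and glycolysis genes had 0 calls of 4, 65, 23 and 13. Epithelial markers were higher in members in 6 of 13, with a summed level of 487 to 12932 CPM in members and 534 to 2888 CPM in CD8B T cells, 20 to 23 of 24 against 12 to 24 detected, and OLFM4 at 0 in members of all 4 libraries. HBB (39.9, 5.75, 2621 and 77.7 CPM in members, 31.1, 27.5, 72.1 and 91.6 CPM in CD8B T cells) was higher in members of 2 of 4 libraries. The part of such RNA in other calls was not tested. Without cells holding 3 or more epithelial markers, which leaves IPP and NoPP, 79 genes were higher.

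The third comparison, with T cells that hold CD4 and no CD8B or TRDC UMI, could use only IPP and NoPP, where 58 and 14 such cells were found, so 1 residual degree of freedom was left and p-values rest on a shared estimate of spread. Of 5896 genes tested, 316 were higher in members (5.36%) and 228 lower (3.87%). DESeq2 called 59 higher and 51 lower. Effector genes stood far apart. XCL1 had 830 and 679 CPM in members of IPP and NoPP and no UMI in CD4 T cells, at least 83.4-fold higher, and CCL5 had 13878 and 14712 CPM, against 94.3 and 33.7 CPM (log2 7.59 ± 0.18 SE by edgeR). PRF1 had 172 and 164 CPM in members and no UMI in CD4 T cells, at least 18.7-fold higher, and KIT had 177 and 154 CPM and none, at least 18.4-fold higher. ITGAE had 445 and 404 CPM in members, against 7.25 and 33.7 CPM (log2 5.28 ± 0.41 SE), and CCR9 had 695 and 676 CPM, against 83.4 and 135 CPM (log2 3.00 ± 0.25 SE). Both are markers of lymphocytes of the epithelium, and all 6 genes passed edgeR's test. For XCL1 and CCR9, named as markers of the members from these same data, the difference is given as a description. CCL5, ITGAE and CCR9 were called in all 10 alternative settings, and XCL1, PRF1 and KIT in 9 of 10.

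By group, 8 of 13 NK-type receptors and adaptors tested were higher in members and 3 lower, with a median log2 of 3.61 against 0.06 over all genes. KLRK1 had 511 and 575 CPM in members, against 3.63 and 0 CPM in CD4 T cells, and CD96 had 253 and 280 CPM, against 3.63 and 0 CPM. All 4 class II genes were higher, CD74 with 2086 and 1760 CPM in members, against 90.7 and 152 CPM. Of 16 checkpoint and costimulatory genes, 4 were higher and 10 lower. CTLA4, an inhibitory receptor, had 0 and 0.809 CPM in members, against 123 and 371 CPM in CD4 T cells, and ICOS, a costimulator, had 5.98 and 14.6 CPM, against 203 and 236 CPM. Of 13 genes of recirculation and naive cells, 2 were higher, CXCR4 among them, and 4 lower, CCR7 with 9.96 and 7.28 CPM in members, against 395 and 118 CPM, and S1PR1 with 10.96 and 25.1 CPM, against 229 and 84.2 CPM. Of 16 interferon response genes 10 were lower and 0 higher, and of 24 immediate early genes 4 were higher and 11 lower. At a mitochondrial limit of 10% these became 5 lower of 12 interferon response genes, and 1 higher and 2 lower of 21 immediate early genes (edgeR). TCF7 and IL7R did not pass, with 374 and 379 CPM in members and 301 and 236 CPM in CD4 T cells for TCF7 (edgeR adjusted p = 0.079), and 157 and 135 CPM against 174 and 135 CPM for IL7R (0.96).

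The members were not uniform. CD2, an adhesion receptor by which pig gamma delta T cells are classed, was seen in 80.6%, 91.3%, 84.8% and 87.5% of members in DUOD, JEJ, IPP and NoPP, 570 of 661 in all, against 8.80% of IPP B cells. Members with and without a CD2 UMI were compared in DUOD, IPP and NoPP, since JEJ had 6 cells without CD2. Cells without CD2 were shallower, with median UMIs of 3282, 4193.5 and 4190 in CD2+ and 2882, 3369 and 3698 in CD2- members, and how many CD2- cells hold CD2 that was not captured was not tested. Of 2076 genes tested, 14 were higher (0.674%) and 23 lower (1.11%) in CD2+ members, with 243 at an unadjusted p below 0.05. Without IPP, which leaves 2 libraries, 0 were higher and 2 lower (edgeR). Of 31 named genes BLK alone kept its call whichever library was left out.

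RHEX and BLK were lower in CD2+ members. RHEX stood at 38.2, 15.9 and 2.74 CPM in CD2+ members of DUOD, IPP and NoPP, against 541, 649 and 650 CPM in CD2- members (log2 -5.69 ± 0.41 SE, edgeR adjusted p = 3.5e-06, 0.10 without IPP). BLK stood at 5.46, 28.4 and 13.7 CPM in CD2+ members, against 259, 328 and 346 CPM (log2 -4.12 ± 0.34 SE, edgeR adjusted p = 1.3e-05, 0.046 without IPP). The groups of both genes lie far apart in each library. Cell by cell, RHEX or BLK was seen in 33 of 570 CD2+ members (5.79%, 4.02% to 8.03%) and in 47 of 91 CD2- members (51.6%, 40.9% to 62.3%). After thinning to 1000 UMIs, RHEX was seen in 0.526% of CD2+ and 29.7% of CD2- members and BLK in 1.93% and 22.0%. The 2 genes also went together, RHEX being seen in 83.3%, 14.3%, 55.2% and 65.6% of members with BLK in DUOD, JEJ, IPP and NoPP, and in 3.57%, 1.61%, 0.467% and 0.784% of members without it. Members with and without BLK were not matched for depth, and the part of depth was not tested. RHEX was held by 5 CD2+ and 44 CD2- members, and BLK by 31 and 43. In JEJ, which was not in the test, 6 of 63 CD2+ and 2 of 6 CD2- members held either gene.

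**Figure D5:**
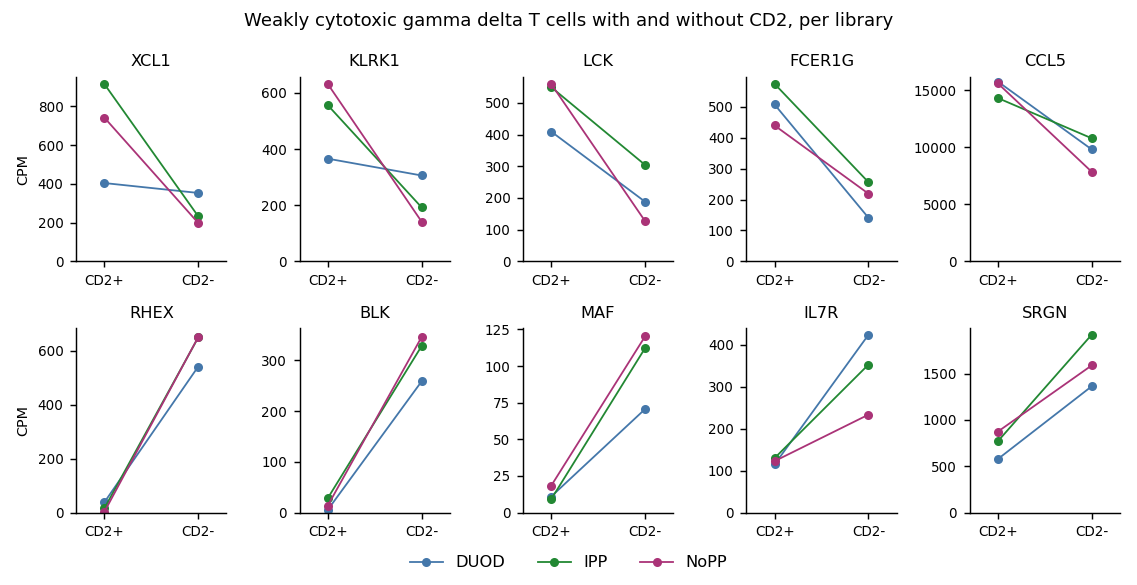
CPM (y, from 0) of 10 genes in members with CD2 (left, CD2+) and without a CD2 UMI (right, CD2-), 1 line per library for DUOD, IPP and NoPP. RHEX is at 2.74 to 38.2 CPM in CD2+ and 541 to 650 CPM in CD2- members, and XCL1 differs least in DUOD.

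MAF, a transcription factor of innate-like and helper T cells, was lower in CD2+ members, with 10.9, 9.10 and 18.3 CPM against 70.6, 112 and 120 CPM in CD2- members (log2 -2.99 ± 0.47 SE, edgeR adjusted p = 0.0033, 0.37 without IPP). The interleukin 7 receptor IL7R stood at 115, 130 and 122 CPM in CD2+ members, against 423, 352 and 233 CPM (log2 -1.31, edgeR adjusted p = 0.0063, 0.55 without IPP), and SRGN at 579, 771 and 875 CPM, against 1364, 1922 and 1590 CPM (log2 -1.11 ± 0.13 SE, edgeR adjusted p = 0.00051, 0.35 without IPP). GATA3, a transcription factor that marks CD2- gamma delta T cells in pig blood, did not pass, with 65.5, 67.1 and 64.9 CPM in CD2+ members and 235, 64.1 and 141 CPM in CD2- members (edgeR adjusted p = 0.36). Of 17 immediate early genes 5 were lower in CD2+ members (TNFAIP3, JUN, ATF3, DUSP2 and FOS) and 0 higher, with a median log2 of -0.83 against -0.0041 over all genes. Of these 5 genes 0 kept their call without IPP, 2 without NoPP and 3 without DUOD. DUSP2 lost its call whichever library was left out, and ATF3 and FOS lost theirs without IPP or NoPP, at adjusted p of 0.55 at most for the 3 genes.

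XCL1, KLRK1, FCER1G, LCK and CCL5 were higher in CD2+ members. XCL1 stood at 404, 915 and 741 CPM in CD2+ members, against 353, 232 and 198 CPM in CD2- members (log2 1.63 ± 0.26 SE, edgeR adjusted p = 0.0036, 0.66 without IPP). KLRK1 stood at 366, 556 and 632 CPM, against 306, 192 and 141 CPM (log2 1.56, edgeR adjusted p = 0.0053, 0.66 without IPP), and FCER1G at 508, 574 and 440 CPM, against 141, 256 and 219 CPM (log2 1.21, edgeR adjusted p = 0.0033, 0.40 without IPP). In DUOD the XCL1 and KLRK1 values of the groups lay close together. LCK, the kinase that starts receptor signalling, stood at 409, 549 and 559 CPM, against 188, 304 and 127 CPM (log2 1.38, edgeR adjusted p = 0.0058, 0.35 without IPP), and CCL5 at 15759, 14317 and 15600 CPM, against 9809, 10788 and 7844 CPM (log2 0.70 ± 0.09 SE, edgeR adjusted p = 0.0010, 0.10 without IPP). CCR9, ITGAE and CD8A did not pass, with edgeR log2 fold changes of 0.51, 0.72 and 1.09 and adjusted p of 0.29, 0.12 and 0.29. None of 63 ribosomal protein, 22 oxidative phosphorylation or 11 glycolysis genes passed. TFF3, a goblet cell peptide, passed as lower in CD2+ members (16.4, 51.2 and 197 CPM in CD2+ and 0, 64.1 and 6042 CPM in CD2- members), but in DUOD it was higher in CD2+. The TFF3 call was lost without IPP (edgeR adjusted p = 0.059). In NoPP, where the groups lay far apart, 78.3% of the TFF3 UMIs of all members lay in 1 cell. Without cells holding 3 or more epithelial markers the TFF3 log2 value turned to 0.49. Epithelial markers summed to 488 to 5682 CPM in CD2+ and 481 to 8077 CPM in CD2- members, and their part was not tested.

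Regions were compared within the members as ratios of CPM, called past 2-fold, over genes with at least 50 CPM in one region of the pair. Intervals cover counting error only. Of the 6 possible pairs 3 were compared, and the pairs differ in members and UMIs, so their counts past 2-fold are not ranked. Between NoPP and JEJ, with 287 and 69 members, 84 of 2877 genes were higher in NoPP past 2-fold (2.92%) and 156 lower (5.42%). Of the T cell lists, 0 of 8 receptor, 0 of 13 homing, 0 of 8 NK-type and 0 of 20 transcription factor genes were past 2-fold. In NoPP, RHEX was higher among 8 gamma delta lineage genes, 1 GZMA gene among 8 granule genes, TNFRSF1B among 7 checkpoint and costimulatory genes, and TNFAIP3, NR4A3 and ATF3 among 18 immediate early genes. LTB was lower among 6 chemokines and cytokines, CD200R1 among the checkpoint genes, and IFI6 and GBP1 among 8 interferon response genes. LTB and IFI6 were no longer past 2-fold without the highest cell of each gene, and without cells holding 3 or more epithelial markers LTB, ATF3 and TNFRSF1B were not and IFI6 was higher in NoPP (log2 2.01). TNFAIP3, which limits inflammatory signalling, was higher in NoPP, with 261 CPM against 124 CPM in JEJ (2.11-fold, 1.53 to 2.97), and so was TNFRSF1B, a TNF receptor, with 199 CPM against 94.9 CPM (2.10-fold, 1.45 to 3.12). GBP1 was lower in NoPP, with 176 CPM against 406 CPM in JEJ (2.31-fold, 1.85 to 2.87). Of the epithelial markers, 3 of 15 were higher and 11 lower in NoPP, and with the highest cell of every gene removed 46 genes were lower in place of 156. CCL25, the epithelial ligand of CCR9, had 1.62 CPM in NoPP and 129 CPM in JEJ members, and 97.8% of its JEJ UMIs lay in 1 cell.

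Between the ileal samples, with 243 members in IPP and 287 in NoPP, 15 of 2661 genes were higher in IPP past 2-fold (0.564%) and 26 lower (0.977%). Of 16 immediate early genes 5 were lower in IPP and 0 higher. ATF3, 1 of these 5, was not past 2-fold without the highest cell of each gene. Without cells holding 3 or more epithelial markers ATF3 was not past 2-fold either, while the other 4 were in both checks. JUN, part of the AP-1 factor, had 252 CPM in IPP and 622 CPM in NoPP (2.47-fold lower, 2.14 to 2.85). FOS, its partner, had 91.6 CPM in IPP and 230 CPM in NoPP (2.51-fold lower, 1.98 to 3.21), and the heat shock cofactor DNAJB1 had 129 CPM in IPP and 354 CPM in NoPP (2.73-fold lower, 2.24 to 3.35). IPP lay below NoPP in all 3. ZNF683 was lower in IPP, with 48.8 CPM against 104 CPM in NoPP (2.14-fold, 1.53 to 3.04), and CD44, an adhesion receptor, with 35.9 CPM against 72.0 CPM (2.01-fold, 1.35 to 3.05). Without cells holding 3 or more epithelial markers ZNF683 was no longer past 2-fold, while CD44 still was. The interferon gene IFI6 was higher in IPP, with 178 CPM against 83.4 CPM (2.14-fold, 1.67 to 2.75), and the scaffold gene GRASP with 110 CPM against 34.8 CPM (3.15-fold, 2.19 to 4.59). None of 8 receptor, 8 NK-type, 8 granule or 4 class II genes was past 2-fold. HBB, TFF3, MUC2, CLCA1 and SPINK4 also differed, and 51.1% to 98.3% of their UMIs in the higher region lay in 1 cell.

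Between JEJ and DUOD, with 69 and 62 members, 223 of 2881 genes were higher in JEJ past 2-fold (7.74%) and 150 lower (5.21%). XCL1 was higher in JEJ, with 1223 CPM against 394 CPM in DUOD (3.10-fold, 2.46 to 3.94), and so was CD247, with 1418 CPM against 660 CPM (2.15-fold, 1.79 to 2.60). IL7R was lower in JEJ, with 83.4 CPM against 173 CPM in DUOD (2.07-fold, 1.25 to 3.47), RHEX with 28.8 CPM against 133 CPM (4.62-fold, 2.20 to 10.6) and S100A4 with 60.4 CPM against 155 CPM (2.57-fold, 1.45 to 4.64). Of 10 granule genes 3 were lower in JEJ, both GZMA genes among them, of 9 chemokines and cytokines 2 were higher and 3 lower, and of 4 class II, 12 glycolysis and 22 oxidative phosphorylation genes none was past 2-fold. Of 19 immediate early genes 5 were lower in JEJ and 0 higher (TNFAIP3, JUN, EGR1, ATF3 and NFKBIA). In DUOD 52.9% of the ATF3, 61.1% of the NFKBIA and 50% of the EGR1 UMIs lay in 1 cell. Without the highest cell of each gene in both regions 3 of the 5 were still past 2-fold, and without cells holding 3 or more epithelial markers TNFAIP3 alone was, with ATF3 higher in JEJ (log2 0.62). IRF1, an interferon response factor, had 34.5 CPM in JEJ, against 146 CPM in DUOD (4.24-fold lower, 2.13 to 9.01), and AREG, an epithelial growth factor ligand, had no UMI in JEJ and 75.3 CPM in DUOD, at least 8.73-fold lower in JEJ against a limit of 3 UMIs. AREG was seen in 62.4% of DUOD epithelial cells and 12.9% of DUOD members, and without cells holding 3 or more epithelial markers the lower value in JEJ was not seen. Other large differences lay in single cells, such as COL3A1 with no UMI in JEJ and 833 CPM in DUOD.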

How the data were processed

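Per the file headers and the submitters' processing notes, Cell Ranger (version 4.0.6) made 1 matrix per region, and the authors deposited raw UMI counts per gene and barcode (25880 genes, 44726845 to 91813234 UMIs a region). The genome build is not given in the sources used here. Symbols came from the files for 17733 genes and from a gene name table for 977, and 7170 had none. The members and gene lists were chosen with earlier results of these data known.

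Barcodes with at least 1000 UMIs, 500 genes and at most 25% mitochondrial UMIs were kept. Of the NoPP barcodes, 121 were left out because the DUOD matrix held 10 times their UMIs or more. Cells were not clustered. Doublets were scored with scanpy's Scrublet and kept in the main analysis. B cells held at least 2 CD79B and MS4A1 UMIs and no CD3E or TRDC, and epithelial cells held EPCAM and at least 2 epithelial markers. UMIs were summed per library and gate and tested with edgeR's quasi-likelihood test with the library as a block (TMM scaling, edgeR's expression filter, Benjamini-Hochberg adjusted p below 0.05), in libraries with at least 10 cells per gate, without 11 gate and 13 mitochondrial genes. CD2 was also left out where it split the members. Each SE of an edgeR log2 fold change was worked back from the test, as the change over the square root of its F statistic. Regions were compared by CPM ratios with exact 95% Poisson intervals over genes of at least 50 CPM in 1 region of a pair, and a count of 0 was set to 3 UMIs for bounds. Shares have exact 95% Clopper-Pearson intervals. UMIs are molecules, but intervals cover counting error only. Thinned shares draw 1000 UMIs a cell (seed 11).

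The text draws on the gate genes, the 4 markers, the 20 most abundant genes, and from each of 22 lists up to 4 called members with the largest change. It also draws on up to 8 called genes outside the lists per direction (region pairs likewise, past 2-fold), and abundant homing, chemokine, granule and NK-type genes. Some genes are not reported here. TCF7 and IL7R against CD4 T cells, GATA3, and other named genes outside this rule were chosen after their values were seen and were not refitted without each library. Alternatives were DESeq2, no expression filter, no block, other limits on UMIs, mitochondrial share, TRDC and GNLY with GZMB, doublets left out, other totals, and each library left out. Scripts were tested on simulated counts. Versions were Python 3.11.15, numpy 2.4.6, scipy 1.17.1, pandas 2.3.3, scanpy 1.11.5, R 4.3.3, edgeR 4.0.16, limma 3.58.1 and DESeq2 1.42.0.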

Additional observations from a re-analysis of the deposited data

Results flagged for a closer look

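In 4 of the named genes, 1 library's log2 fold change (ratio of CPM with 0.5 added to each UMI count) lay far from those of the other 3 libraries. Chance flags about 1 in 20 such groups of 4, and 37 named genes were looked at against strongly cytotoxic cells and 54 against CD8B T cells. Against strongly cytotoxic cells, CCR9 stood at 6.16 in DUOD, where the 28 strongly cytotoxic cells held no CCR9 UMI. Against CD8B T cells, CD69, an early activation and retention marker, stood at 1.28 in DUOD, with 111 CPM in members and 31.1 CPM in 11 CD8B T cells. Over the 4 libraries CD69 was instead called lower in members, with log2 -0.84 to -0.50 in the alternative settings. The CD69 call was lost without IPP or NoPP (edgeR adjusted p up to 0.65). FSCN1 stood at 0.597 in DUOD, with 115 CPM in members and 62.1 CPM in CD8B T cells. FABP1, an enterocyte lipid carrier, stood at 4.98 in JEJ, where 96.0% of its UMIs in members lay in 1 cell.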

How the results depend on the processing

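No paired analysis was possible because the replicate numbers 1 to 4 in the titles cannot be traced to barcodes. Leaving out cells with 3 or more epithelial markers was chosen after seeing the data. Where a value moved, the cause was not tested. Member shares in gut order, from DUOD to NoPP, were 5.15%, 4.97%, 5.32% and 8.64% with the gate on thinned cells and 22.2%, 19.1%, 23.4% and 25.8% of barcodes with CD3E. Without epithelial-marker cells they were 12.4%, 10.4% and 8.74% in DUOD, JEJ and IPP, on 26, 21 and 184 members. At a mitochondrial limit of 10%, JEJ had 10.6% and NoPP 17.5%, and at 2000 UMIs NoPP had 15.9%.

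Against strongly cytotoxic cells, the 72 higher calls became 185 with no expression filter, 10 at a mitochondrial limit of 10%, 39 at 2000 UMIs, 31 with at least 3 TRDC UMIs, 46 with GNLY and GZMB below 3, 44 without epithelial-marker cells, and 8 to 91 with 1 library left out. The 50 lower calls became 127 with no filter, 32 with no block, 27 at the 10% limit and 22 to 53 with 1 library left out. Against CD8B T cells, the 78 higher calls became 20 with DESeq2, 134 with no filter, 23 with no block, 16 at the 10% limit, 51 with GNLY and GZMB below 3 and 55 to 71 with 1 library left out. The 53 lower calls became 22 with DESeq2, 19 with no block, 17 at the 10% limit and 23 to 62 with 1 library left out. Against CD4 T cells, with 2 libraries and none to leave out, higher and lower calls were 59 and 51 with DESeq2 and 123 and 83 at the 10% limit. Between CD2+ and CD2- members, the 14 higher calls became 9 with DESeq2, 65 with no filter, 28 at the 10% limit, 23 with at least 3 TRDC UMIs, 26 without epithelial-marker cells and 0 to 29 with 1 library left out. The 23 lower calls became 57 with no filter, 45 at the 10% limit and 2 to 28 with 1 library left out. Libraries with fewer than 10 cells of a gate drop out, so some settings also changed the libraries. Without epithelial-marker cells, JEJ dropped out against strongly cytotoxic cells, and DUOD and JEJ against CD8B T cells. Against CD8B T cells DUOD also dropped out at the 10% limit and with GNLY and GZMB below 3. The CD2 split used only IPP and NoPP at the 10% limit and without epithelial-marker cells.

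For NoPP over JEJ, 84 higher genes became 190 at the 10% limit, 232 without epithelial-marker cells, 182 with totals free of mitochondrial and ribosomal protein genes and 335 from 20 CPM, and 156 lower genes became 289 without epithelial-marker cells, 74 by the mean of the cells' CPM, 46 without each gene's highest cell and 484 from 20 CPM. For IPP over NoPP, 15 higher genes became 35 at the 10% limit and 47 from 20 CPM, and 26 lower genes became 96, 17 without epithelial-marker cells, 15 by the mean, 43 with the other totals and 129 from 20 CPM. For JEJ over DUOD, 223 higher genes became 365 at the 10% limit, 676 without epithelial-marker cells and 737 from 20 CPM, and 150 lower genes became 348, 417, 351 with the other totals and 585.

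Directions turned for 32 of the gene values. Without epithelial-marker cells the log2 value was 0.47 for CST3 and -0.53 for HBB against CD8B T cells, 0.49 for TFF3 in the CD2 split, 2.01 for IFI6, -1.41 for CLCA1 and -1.54 for AGR2 in NoPP over JEJ, 0.72 for KRT8, -0.60 for HBB, 0.094 for LYPD8 and 0.58 for AGR2 in IPP over NoPP, and 0.62 for AREG and ATF3, -1.03 for FABP1 and -0.55 for SORD in JEJ over DUOD. CST3 against CD8B T cells was 0.62 with DESeq2 and -2.52 to 0.80 (0.80 without IPP) with 1 library left out, and HBB was -0.32 (without IPP) to 4.83 with 1 library left out and -0.45 with GNLY and GZMB below 3. At that limit HBB was -0.83 in IPP over NoPP and GZMA_ENSSSCG00000016903 was 0.52 in JEJ over DUOD, and GZMA_ENSSSCG00000016902 was 0.60 there at the 10% limit. IFI6 in NoPP over JEJ was 0.046 by the mean of the cells' CPM. Without the highest cell, IFI6 was 0.039 in NoPP over JEJ, HBB was -0.71 in IPP over NoPP, and JEJ over DUOD was -1.17 for ANPEP, -1.42 for FABP1, -0.58 for CYP2D25, -0.17 for SORD, -2.17 for DDC and CCL25, 1.00 for IGFBP7 and 0.00091 for COL1A2. Of the other alternatives for named genes, 294 values with a library left out and 1698 under other settings kept their call in the population comparisons, and 140 and 254 kept only the direction.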
